A study of Mus musculus with 12 samples.

Results

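The loci of 7 genes for coregulators of the estrogen receptor were examined in ATAC-seq peak lists: Ncoa1, Ncoa2, Ncoa3, Ep300, Crebbp, Ncor1 and Nrip1. These are 7 of the 21951 protein-coding loci of the GENCODE M21 annotation. A locus was the gene body plus 50000 bp upstream, and a peak belonged to it when its summit, the base with the most tags, lay inside. By this rule the 7 loci held 333 of the 658361 peaks listed in the 12 libraries (mouse build mm10). The genes were chosen by name and not by a rule on their peaks, though earlier results of these data were known.

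The libraries came from primary fibroblasts, labelled skeletal muscle fibroblasts, of Aromhum mice. Per the methods of the study these cells were taken from the lower abdominal muscle, selected by early adherence to gelatin-coated culture plates, and starved of serum and phenol red before treatment. Aromhum mice carry the human aromatase gene, the enzyme that makes estrogen from androgen, and all 4 groups share that genotype, so no library shows cells without the transgene. The groups were vehicle (ethanol and DMSO), E2 (estradiol, 10 nM), E2 (10 nM) plus fulvestrant (100 nM), and fulvestrant alone (100 nM), each with 3 libraries and a labelled time of 1 hr. Fulvestrant is an antagonist that also leads to loss of the receptor, and per the methods it was given before E2. Neither the age of the animals nor whether the 3 libraries of a treatment came from separate animals is given in the labels, so p-values measure only the spread between these libraries.

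Bound to estrogen, the receptor's ligand-binding domain takes a shape that recruits coactivators of the p160 family, encoded by Ncoa1, Ncoa2 and Ncoa3. These bring in the histone acetyltransferases encoded by Ep300 and Crebbp, which acetylate histones at enhancers and promoters. Antagonists favour corepressors such as the product of Ncor1, a scaffold for histone deacetylase complexes, while Nrip1 encodes a corepressor that binds the estrogen-bound receptor and is itself a well-known estrogen target gene.

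The lists differed widely. They ran from 30062 peaks (fulvestrant 3) to 110724 (vehicle 2), and the share of peaks with q of 0.05 or less from 7.35% to 46.4%. Depth, read from the background of each list, ranged from 0.713 to 1.42 tags per window, so that a window needed between 3 and 5 tags, by library, to reach a p-value of 0.01 over that background. The 4 libraries with number 1 stood apart: they listed 22 to 36 peaks on the Y chromosome, against 854 to 1148 in the other 8. Values are therefore given library by library. For the labelled cell type, promoters of 8 fibroblast markers had a peak of q of 0.05 or less in 1 to 5 libraries each (median 3.5). The medians for 8 skeletal muscle, 4 endothelial, 5 blood and 5 keratinocyte markers were 0. Their highest values were 3 (muscle, Ckm), 1, 2 and 2 libraries, so the classes overlapped at that q. They overlapped also with all listed peaks, where fibroblast promoters were listed in 3 to 9 libraries each. Among the muscle markers Ckm was listed in 8, Des and Acta1 in 6, Myog in 4, and the muscle regulators Myod1 and Pax7 in none. The promoter of Esr1, the estrogen receptor that the study follows, had a peak of q of 0.05 or less in 3 of 12 libraries (7 with all peaks), and that of Esr2, the gene of the other nuclear receptor for estrogen, in 5 (9 with all peaks).

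By tags, the strongest peak lay within 3000 bp of the gene's 5' end at every locus but Ncoa1. There it lay in an intron, with 9 tags against 8 near the start. The DNA beneath 4 of the start peaks is shown as a description, and its part in the results on promoters was not tested. Each is the stretch within 100 bp of the central summit of a region, read from GRCm38, the sequence of mm10, along the gene's strand and trimmed of annotated untranslated exon. Capitals mark the GC box (GGGCGG) in Crebbp and Nrip1, on either strand. No capitals appear where none of the 8 searched motifs was found in the stretch.
Crebbp start, chr16:4214014-4214214, minus strand: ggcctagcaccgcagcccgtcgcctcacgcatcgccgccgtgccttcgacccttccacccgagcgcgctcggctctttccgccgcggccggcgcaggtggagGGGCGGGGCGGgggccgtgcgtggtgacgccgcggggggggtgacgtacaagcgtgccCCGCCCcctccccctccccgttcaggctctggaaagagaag
Ep300 start, chr15:81585330-81585396, plus strand: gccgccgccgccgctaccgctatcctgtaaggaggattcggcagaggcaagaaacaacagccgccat
Ncoa3 start, chr2:165992496-165992635, plus strand: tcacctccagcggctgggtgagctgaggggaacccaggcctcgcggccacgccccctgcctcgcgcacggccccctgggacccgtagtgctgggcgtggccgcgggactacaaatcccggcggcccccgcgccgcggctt
Nrip1 start, chr16:76373050-76373227, minus strand: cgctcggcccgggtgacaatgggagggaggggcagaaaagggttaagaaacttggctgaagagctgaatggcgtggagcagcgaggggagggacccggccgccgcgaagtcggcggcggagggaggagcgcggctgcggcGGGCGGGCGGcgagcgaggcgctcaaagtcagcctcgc

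These 4 start regions were rich in G and C. The start region of Ncoa2, which reached the most tags, is not among them, so the 4 do not stand for every start. The 201 bp windows were 75.6% (Crebbp), 65.7% (Ep300), 77.1% (Ncoa3) and 69.2% (Nrip1) G or C, beside a median of 62.7% over the 12535 promoter regions of the genome called in at least 4 libraries. A GC box was in the windows of Crebbp (3 matches) and Nrip1 (2 matches), and in 46.5% of those promoter regions. Neither the CCAAT box (CCAAT), found in 29.3% of promoter regions, nor the half-site of the estrogen response element (GGTCA), found in 27.4%, was in the 4 windows. The full estrogen response element, a half-site followed by 3 bases of any kind and the reverse complement TGACC, was in none of the 4 windows and in 0.00798% of promoter regions. AP-1 (TGANTCA), CRE, ETS (CCGGAAG) and NRF1 elements were not found in the 4 windows, and 4.99%, 2.19%, 11.0% and 8.999% of promoter regions held one. Such a match describes letters only, and a window without one says nothing about the factor.

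Regions in introns that recurred over libraries were of another kind. Of the 8 intronic regions called in at least 4 libraries, 7 lay in tandem repeats, in which a short unit follows itself many times. Because recurrent calls inside Ncoa1 and Ncoa2 lay in these repeats, 5 are shown, with alternate stretches in capitals, each stretch as long as the shift at which the window best matched itself. In repeat A of Ncoa1 such a stretch holds more than 1 copy of a shorter unit. The 5 were chosen after their values were seen.
Ncoa1 repeat A, chr12:4292576-4292776, minus strand: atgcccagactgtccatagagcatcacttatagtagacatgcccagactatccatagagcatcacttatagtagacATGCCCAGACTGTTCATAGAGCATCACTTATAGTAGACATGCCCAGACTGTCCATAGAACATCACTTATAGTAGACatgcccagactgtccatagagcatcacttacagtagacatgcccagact
Ncoa1 repeat B, chr12:4467014-4467214, minus strand: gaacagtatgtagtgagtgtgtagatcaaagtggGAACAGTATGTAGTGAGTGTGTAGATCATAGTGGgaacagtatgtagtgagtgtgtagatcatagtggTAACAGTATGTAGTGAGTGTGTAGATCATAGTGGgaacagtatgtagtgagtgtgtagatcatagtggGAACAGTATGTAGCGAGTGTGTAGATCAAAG
Ncoa2 repeat A, chr1:13258090-13258290, minus strand: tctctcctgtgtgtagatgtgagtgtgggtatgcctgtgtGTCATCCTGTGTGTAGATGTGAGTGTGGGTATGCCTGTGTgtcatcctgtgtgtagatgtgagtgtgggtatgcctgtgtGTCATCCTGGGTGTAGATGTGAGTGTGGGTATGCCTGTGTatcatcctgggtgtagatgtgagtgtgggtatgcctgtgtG
Ncoa2 repeat B, chr1:13268496-13268696, minus strand: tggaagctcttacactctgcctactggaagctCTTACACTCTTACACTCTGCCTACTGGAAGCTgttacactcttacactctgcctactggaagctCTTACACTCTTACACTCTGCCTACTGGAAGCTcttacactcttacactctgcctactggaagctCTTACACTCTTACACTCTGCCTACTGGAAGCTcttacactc
Ncoa2 repeat C, chr1:13318525-13318725, minus strand: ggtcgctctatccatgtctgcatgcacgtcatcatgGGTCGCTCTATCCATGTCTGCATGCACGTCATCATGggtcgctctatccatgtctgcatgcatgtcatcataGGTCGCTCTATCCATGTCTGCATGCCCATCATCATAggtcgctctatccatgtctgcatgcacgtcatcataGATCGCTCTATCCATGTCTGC

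Shifted along itself by between 10 and 100 bases, a window of 201 bp matched itself at 91.6% to 97.0% of positions in the 7 repeats, at a shift of 32 to 96 bases. The 4 start windows shown reached 38.3% to 39.2% by the same measure. A window was counted as a tandem repeat from 80% upward, a threshold set after the data had been seen. By it, 11.5% of the 15849 regions outside promoters called in at least 4 libraries anywhere in the genome were tandem repeats, beside 7 of 9 at the coregulator loci, and 2.54% of the 12535 promoter regions. Of intronic regions at the 7 loci, 0 of 71 called in 1 library and 0 of 15 called in 2 or 3 reached 80%. For these the median over the peaks of a region was taken.

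Peak numbers summed over the 7 loci overlapped between all treatments. The vehicle libraries listed 35, 68 and 20 peaks, E2 libraries 37, 38 and 11, E2 plus fulvestrant libraries 27, 15 and 18, and fulvestrant libraries 31, 18 and 15. Vehicle 2, the longest list, had the most and E2 3 the fewest. Per 10000 peaks of the library the sums lay between 3.47 and 7.80, with means of 5.06 ± 0.94 for vehicle, 5.32 ± 2.23 for E2, 4.64 ± 0.65 for E2 plus fulvestrant and 4.94 ± 0.72 for fulvestrant (SD, n = 3). The lowest and the highest of these values both belonged to E2 libraries.

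**Figure D1:**
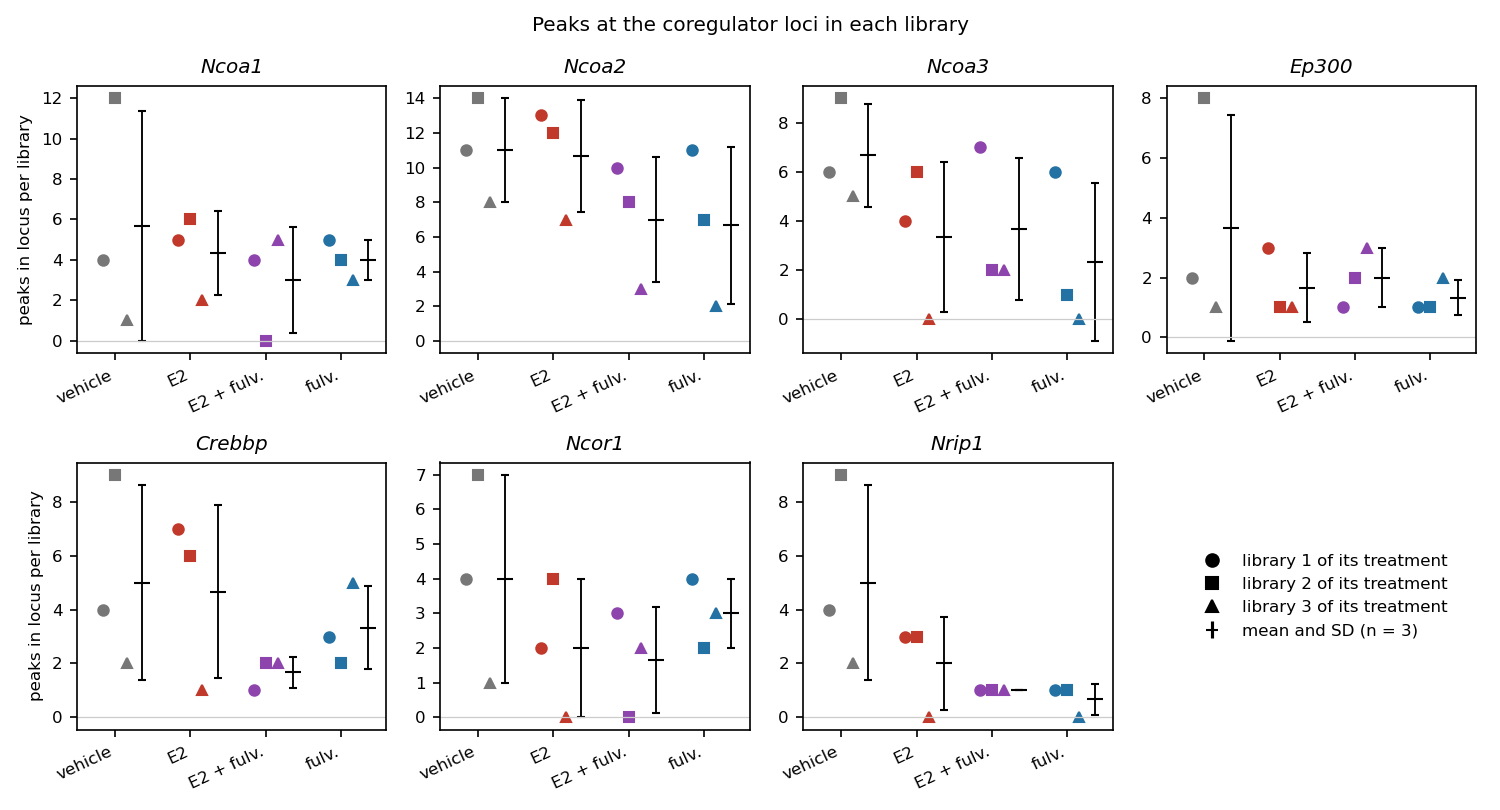
Peaks in each coregulator locus (vertical axis, peaks per library) for the 4 treatments, with a symbol for each library number and a bar for the mean and SD (n = 3). Vehicle 2, the longest list, is the highest vehicle value at every locus, and E2 overlaps E2 plus fulvestrant at all 7.

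Whether E2 opened these loci relative to cells whose receptor was blocked is the question of the comparison of E2 with E2 plus fulvestrant, the contrast on which the study rests. The groups overlapped at all 7 loci. Over the genome, 2.16% of the 21304 protein-coding loci tested did not overlap (1.7% with E2 above and 0.455% with E2 below), so 0 of 7 is close to the background. No locus in the genome passed an adjusted p of 0.05 in the exact two-sided permutation test with Benjamini-Hochberg adjustment, and none had an unadjusted p below 0.05, because 3 libraries against 3 cannot go below 0.10.

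Among the coactivator genes, Ncoa2 had the most peaks and, with all peaks and libraries, the largest difference. Its locus listed 13, 12 and 7 peaks with E2 and 10, 8 and 3 with E2 plus fulvestrant, beside 11, 14 and 8 with vehicle and 11, 7 and 2 with fulvestrant. The means of 10.7 ± 3.21 and 7 ± 3.61 (SD, n = 3) differed by 3.67 peaks, more than either SD, and the exact two-sided permutation test gave p = 0.3 (adjusted p = 1). The difference was 3 within number 1 and 4 within numbers 2 and 3. Without the peaks in tandem repeats, an alternative added after the data were seen, it was 2 peaks, below the 3.33 of Crebbp. As libraries were left out it ranged from 1.67 to 5.5, with the lowest value, below the 3.17 of Crebbp, without E2 plus fulvestrant 3, and with peaks of q of 0.05 or less it was 0.67.

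Ncoa1 listed 5, 6 and 2 peaks with E2 and 4, 0 and 5 with E2 plus fulvestrant, a difference of 1.33 (exact permutation p = 0.6). The vehicle libraries spanned more than this, at 4, 12 and 1 peaks, while fulvestrant libraries had 5, 4 and 3. Ncoa3 listed 4, 6 and 0 peaks with E2 and 7, 2 and 2 with E2 plus fulvestrant, a difference of −0.33 (exact permutation p = 1), whose sign turned when E2 3 or E2 plus fulvestrant 1 was left out (1.33 in either case). Its vehicle libraries had 6, 9 and 5 peaks and its fulvestrant libraries 6, 1 and 0.

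The differences at the acetyltransferase genes had opposite signs, and neither exceeded the spread of both groups. Crebbp listed 7, 6 and 1 peaks with E2 against 1, 2 and 2 with E2 plus fulvestrant, a difference of 3 with an SD of 3.21 among the E2 libraries (exact permutation p = 0.4). It was 1.83 without E2 1 and 4.83 without E2 3. Vehicle libraries had 4, 9 and 2 peaks there and fulvestrant libraries 3, 2 and 5. Ep300 listed 3, 1 and 1 peaks with E2 and 1, 2 and 3 with E2 plus fulvestrant, a difference of −0.33 (exact permutation p = 1), and 8 of its 26 peaks came from vehicle 2 alone.

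The loci of the corepressor genes held 32 peaks (Ncor1) and 26 (Nrip1), beside 26 at Ep300. Ncor1 listed 2, 4 and 0 peaks with E2 and 3, 0 and 2 with E2 plus fulvestrant, a difference of 0.33 (exact permutation p = 1), beside 4, 7 and 1 with vehicle and 4, 2 and 3 with fulvestrant. Nrip1 listed 3, 3 and 0 peaks with E2 and exactly 1 in each E2 plus fulvestrant library, a difference of 1 (exact permutation p = 0.4). Vehicle libraries had 4, 9 and 2 peaks at Nrip1 and fulvestrant libraries 1, 1 and 0.

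One library set several of these overlaps. E2 3 listed 11 peaks at the 7 loci, the fewest of any library, and none at Ncoa3, Ncor1 or Nrip1. Without it, the E2 values at Ncoa2, Nrip1 and Crebbp lay above all E2 plus fulvestrant values. That is 3 of 7 loci, beside 10.1% of all loci with the same library left out. It was the highest count as libraries were left out. E2 3 was singled out after its low counts at these same loci were seen, so no conclusion is drawn from the 3 of 7. Per 10000 peaks of the library Nrip1 and Crebbp kept the separation. Ncoa2 did not, with 1.65 in E2 1 and 2.20 in E2 plus fulvestrant 2. With 2 libraries against 3 the smallest exact p is again 0.1.

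Against vehicle, the means were lower at all 7 loci for E2, for fulvestrant and for E2 plus fulvestrant, beside the long list of vehicle 2. Per 10000 peaks of the library 4 of 7 were lower in each of the 3 comparisons. Within number 1 the difference was negative at 3 of 7 with E2, 3 with fulvestrant and 5 with E2 plus fulvestrant. It was positive there at 4, 1 and 1. Within numbers 2 and 3, which include vehicle 2, it was negative at all 7 in each comparison. Nrip1 was the only member whose groups did not overlap: vehicle had at least 2 peaks, while fulvestrant and E2 plus fulvestrant libraries had at most 1. Over all loci, 4.63% lay below vehicle without overlap with fulvestrant, 5.67% with E2 plus fulvestrant and 3.26% with E2. These 3 comparisons share the vehicle libraries and were not tested.

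Set against their length, the loci were not rich in peaks. Ncoa2 (3.10 ± 1.31 peaks per 100 kb, SD, n = 12) and Ncoa3 (3.06 ± 2.26) were at the median of all protein-coding loci, 3.08. Crebbp (2.01), Ep300 (1.86), Nrip1 (1.59), Ncoa1 (1.52) and Ncor1 (1.39) lay lower, between the 17.8th and the 28.8th percentile. Their SDs over the 12 libraries, 1.03 to 1.82 peaks per 100 kb, were larger than the gaps between neighbours in this order.

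Promoter calls, given apart, counted a peak with its summit within 3000 bp of any annotated transcript start of the gene. Crebbp had one in 10 of 12 libraries, Ep300 in 9, Ncoa2 and Ncoa3 in 8, Ncor1 in 7, Nrip1 in 5 and Ncoa1 in 3. That is 50 of 84 pairs of gene and library, or 59.5%, beside 39.7% over all protein-coding genes. With peaks of q of 0.05 or less the count was 28 of 84, or 33.3%, beside 21.3%. Several of the genes have many annotated starts, up to 23 for Ncor1, which widens the window that counts. No promoter was listed with E2 in 3 of 3 libraries and with E2 plus fulvestrant in none (background 0.326%) or in the reverse pattern (0.286%).

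Promoter calls differed more between library numbers than between treatments. Vehicle libraries called 6, 6 and 5 of the 7 promoters, E2 libraries 5, 4 and 1, E2 plus fulvestrant libraries 7, 3 and 0, and fulvestrant libraries 7, 3 and 3. E2 and E2 plus fulvestrant had the same mean, 3.33, with SDs of 2.08 and 3.51 (n = 3). The difference of 0 became 1 with the window of 1000 bp, 1.83 without E2 plus fulvestrant 1 and −1.67 without E2 plus fulvestrant 3, the highest and lowest values as libraries were left out. Over the 4 libraries numbered 1, 25 of 28 pairs were called (all genes 60.8%), against 25 of 56 in the other 8 libraries (all genes 29.1%).

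**Figure D2:**
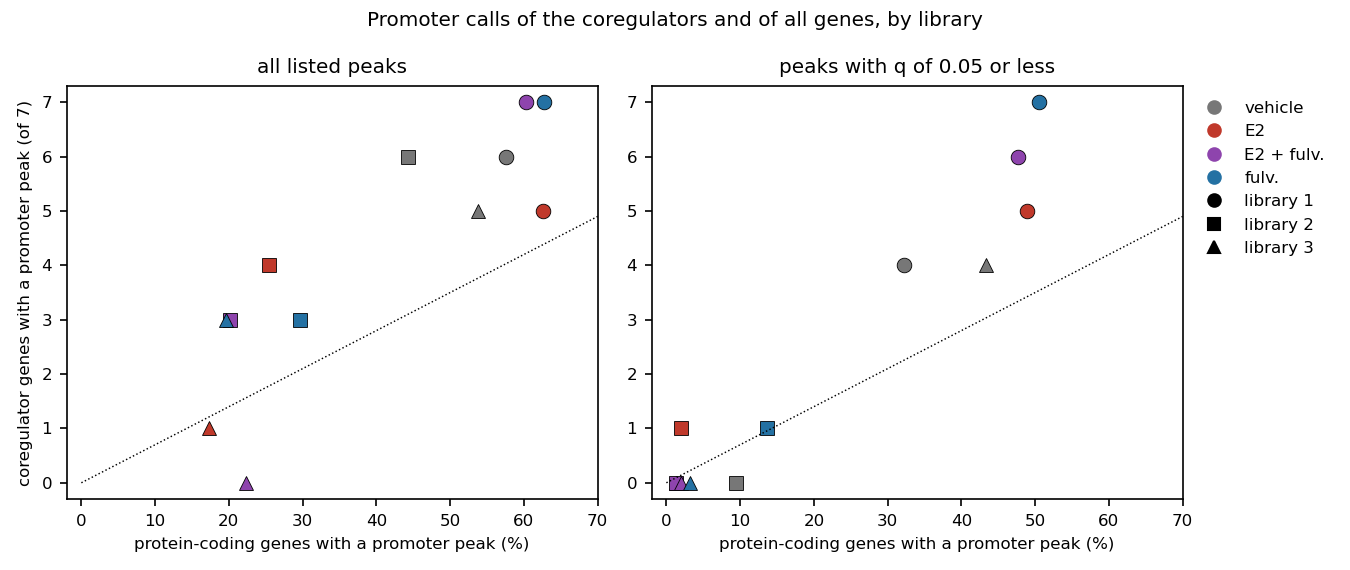
Coregulator genes with a promoter peak (vertical axis, of 7) against the share of all protein-coding genes with one (horizontal axis, %), 1 point per library, for all listed peaks (left) and peaks with q of 0.05 or less (right). The dotted line marks equal shares. On the right, the 4 libraries numbered 1 and vehicle 3 stand at 4 or more genes and the other 7 libraries at 1 or 0.

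The same division held over the genome. The share of protein-coding genes with a promoter peak of q of 0.05 or less was 32.2% to 50.6% in the libraries numbered 1 and 43.3% in vehicle 3, but 1.29% to 13.6% in the other 7 libraries. Those 7 gave 2 of the 28 coregulator calls at that q. The part that this division between libraries plays in the promoter results was not tested.

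Within this division, the tags at the gene starts were set side by side as listed and divided by the background of the library. Tags are given at the summit of the strongest peak within 3000 bp of the gene's own 5' end, where a dash in the plot marks a library that lists no peak. Such an absence means fewer tags than that list required, not a closed promoter.

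**Figure D3:**
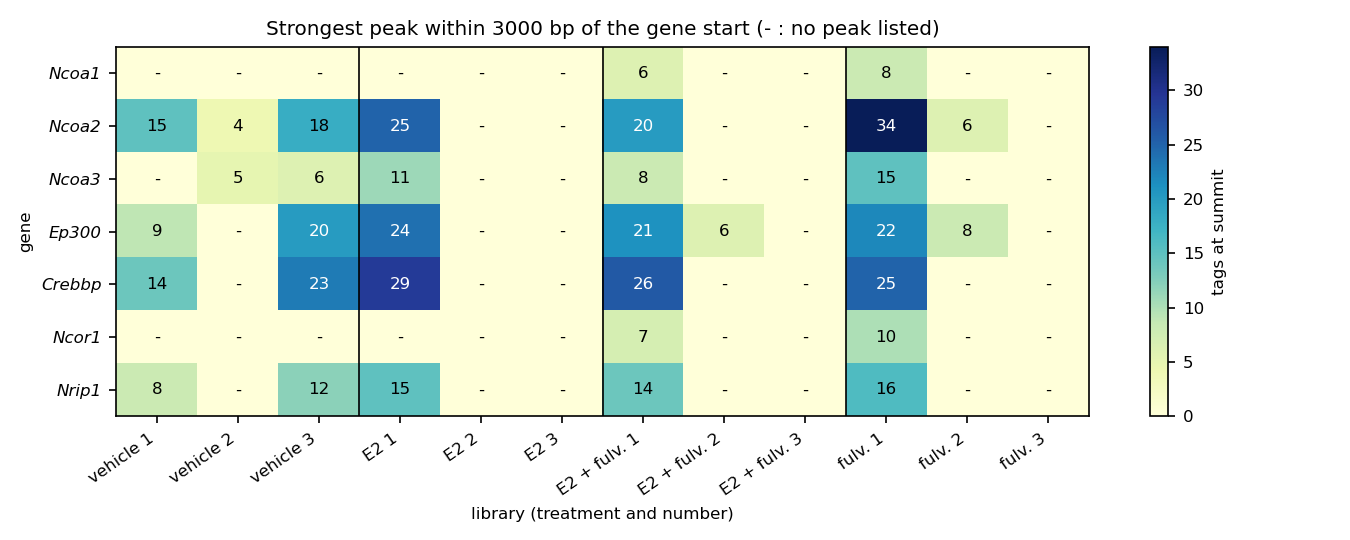
Tags at the summit of the strongest peak within 3000 bp of each gene's 5' end (colour and printed number), for the 7 genes (rows) and 12 libraries (columns, by treatment). The 4 libraries numbered 1 and vehicle 3 hold the high values, up to 34 tags for Ncoa2 in fulvestrant 1, and E2 2, E2 3, E2 plus fulvestrant 3 and fulvestrant 3 list none.

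Crebbp had the strongest start by q. Its peak held 29 tags in E2 1, 26 in E2 plus fulvestrant 1, 25 in fulvestrant 1, 14 in vehicle 1 and 23 in vehicle 3, and the other 7 libraries listed none. Divided by the background of each library, which removes the difference in depth, these were 23.1, 23.5, 20.6, 19.6 and 22.6 times background. The E2 1 value had a 95% Poisson interval of 15.5 to 33.2 and the E2 plus fulvestrant 1 value one of 15.4 to 34.5, both for counting error only, so no difference between them was detectable at this depth. The summits lay 100 to 418 bp upstream of the 5' end.

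Ep300 was strongest in the same 5 libraries, with 24 tags in E2 1, 21 in E2 plus fulvestrant 1, 22 in fulvestrant 1, 9 in vehicle 1 and 20 in vehicle 3. Relative to background these were 19.2, 19.0, 18.1, 12.6 and 19.6. Weaker peaks of 6 and 8 tags were listed in E2 plus fulvestrant 2 and fulvestrant 2, the former in a region of its own, 2016 bp upstream of the 5' end. The central summit lies 400 bp from the start of another gene, 1110025M09Rik, so the peak cannot be given to one of the pair.

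Among the p160 genes, Ncoa2 had 25 tags in E2 1, 20 in E2 plus fulvestrant 1, 34 in fulvestrant 1, 15 in vehicle 1 and 18 in vehicle 3. Those are 19.95, 18.1, 28.0, 21.04 and 17.7 times background, and the Poisson interval of the highest, 19.4 to 39.2, overlapped those of the other 4. Weaker Ncoa2 peaks in fulvestrant 2 (6 tags, 6.30 times background, interval 2.31 to 13.7) and vehicle 2 (4 tags, 5.01 times background, interval 1.36 to 12.8) lay below that interval. The vehicle 2 peak was in a region of its own, 1610 bp upstream of the 5' end, while the others lay 1272 to 1546 bp inside the gene. Ncoa3 reached 11 tags in E2 1, 8 in E2 plus fulvestrant 1, 15 in fulvestrant 1, 6 in vehicle 3 and 5 in vehicle 2. Over background these were 8.78, 7.24, 12.4, 5.89 and 6.26, and the Poisson interval of the highest, 6.92 to 20.4, overlapped those of the other 4. The vehicle 2 peak of Ncoa3 was in a region of its own, 522 bp inside the gene. The central summit of the Ncoa3 start region was 79 bp from the start of Gm11464. Near the start of Ncoa1, peaks were listed only in E2 plus fulvestrant 1 (6 tags, 1394 bp inside the gene) and fulvestrant 1 (8 tags, 1149 bp upstream). These lay in separate regions, and the highest value was the weakest of the 7.

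Of the corepressors, Nrip1, the known estrogen target, had 15 tags in E2 1, 14 in E2 plus fulvestrant 1, 16 in fulvestrant 1, 8 in vehicle 1 and 12 in vehicle 3. Over background the 5 values were 11.97, 12.7, 13.2, 11.2 and 11.8, the narrowest span of the 4 starts listed in these 5 libraries. The Nrip1 summits lay 690 to 759 bp inside the gene. Ncor1 was listed only in E2 plus fulvestrant 1 (7 tags, 1965 bp inside the gene) and fulvestrant 1 (10 tags, 1222 bp inside). These strongest peaks lay in separate regions, but the region that held the fulvestrant 1 peak was called in both libraries. Its central summit lay 1009 bp from the start of another gene, Pigl. With 1 library numbered 1 per treatment, these side by side values have no replicate check.

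The regions at the 7 loci were shared between libraries about as seldom as those of the genome. The 333 peaks merged into 228 regions, of which 182 (79.8%) were listed in a single library, beside 77.7% of all 435284 regions of the genome. Another 46 were in at least 2 libraries, 16 (7.02%) in at least 4, beside 6.57% of all regions, and none in 9 or more, beside 0.505%. Of the peaks, 65 of 333 (19.5%) had q of 0.05 or less, against 24.8% of all peaks. These 65 comprised 28 of 78 in the genes' own promoters, 28 of 149 in introns, 6 of 30 in promoters of other genes, 3 of 61 upstream and 0 of 15 in exons.

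**Figure D4:**
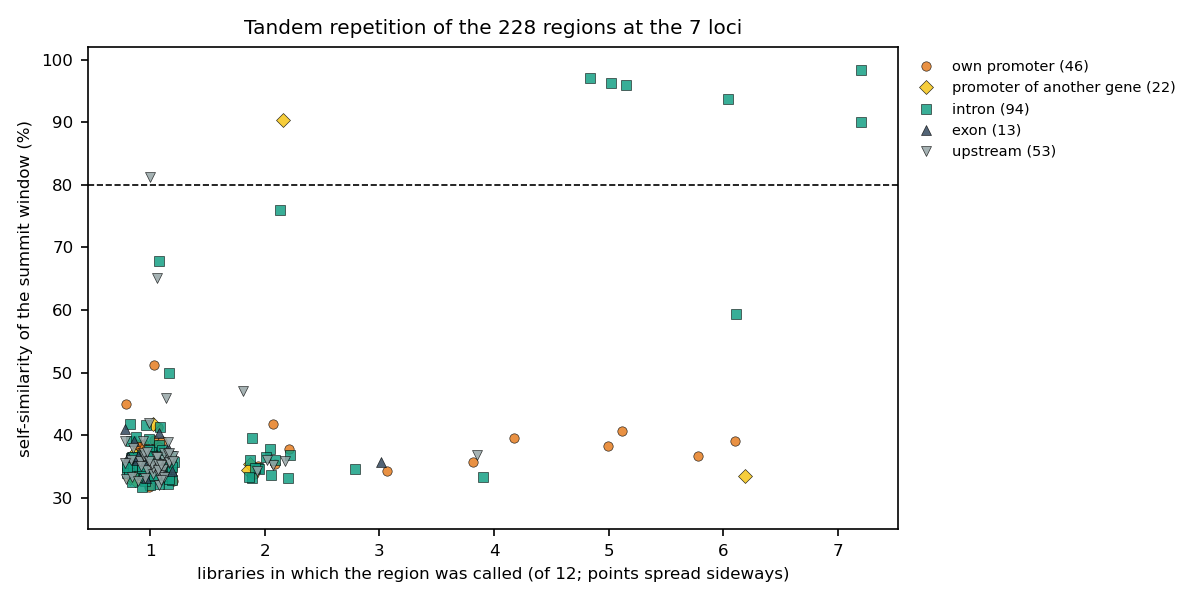
Self-similarity of the 201 bp summit window (vertical axis, %, the median over the peaks of a region) against the number of libraries that called the region (horizontal axis), for the 228 regions at the 7 loci by position. Above the dashed line at 80%, taken as a tandem repeat, stand 6 of the 8 intronic regions called in 4 or more libraries, and a seventh, whose central window passed the line, has a median of 59.3%.

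Introns of 2 coactivator genes held the recurrent repeats. In tandem repeats lay 18 of 51 peaks at Ncoa1 and 19 of 106 at Ncoa2, with 1 of 44 at Crebbp and none at the other 4 loci or in any of the 78 peaks at the genes' own promoters. Together these were 38 of 333 peaks, or 11.4%, beside 1.66% (vehicle 1) to 5.26% (fulvestrant 3) of all peaks listed in a library. Repeat A of Ncoa1, 184506 bp inside the gene, was called in 7 libraries: vehicle 2, E2 1 and 3, E2 plus fulvestrant 1 and 3, and fulvestrant 2 and 3, with 5 to 9 tags. No treatment was set apart there.

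Repeat A of Ncoa2, 115893 bp inside the gene, was the only repeat of the 7 called in every E2 library and in no vehicle library. It had 10, 10 and 6 tags in the 3 E2 libraries, 7 and 7 in E2 plus fulvestrant 1 and 2, and 6 and 9 in fulvestrant 1 and 2. It passed q of 0.05 in 4 of its 7 libraries. Of all regions called in either group, 0.0567% were listed with E2 in 3 of 3 libraries and with vehicle in none, beside 2 of 165 at the coregulator loci (this repeat and an exon of Ep300). Over the 7 repeats together, vehicle made 7 of 21 possible calls, E2 13, E2 plus fulvestrant 12 and fulvestrant 9, and 6 of the 7 vehicle calls came from vehicle 2. The peaks in repeats were not confined to the libraries numbered 1, which made 17 of the 41 calls, against 19 of the 26 at the 5 gene starts.

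The central 32 bases of the windows occurred between 1 and 10 times in the genome, 10 times in the repeat of Ncoa1 that is not shown and once in both repeats of Ncoa1 shown. The part of repetition in these calls was not tested.

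**Figure D5:**
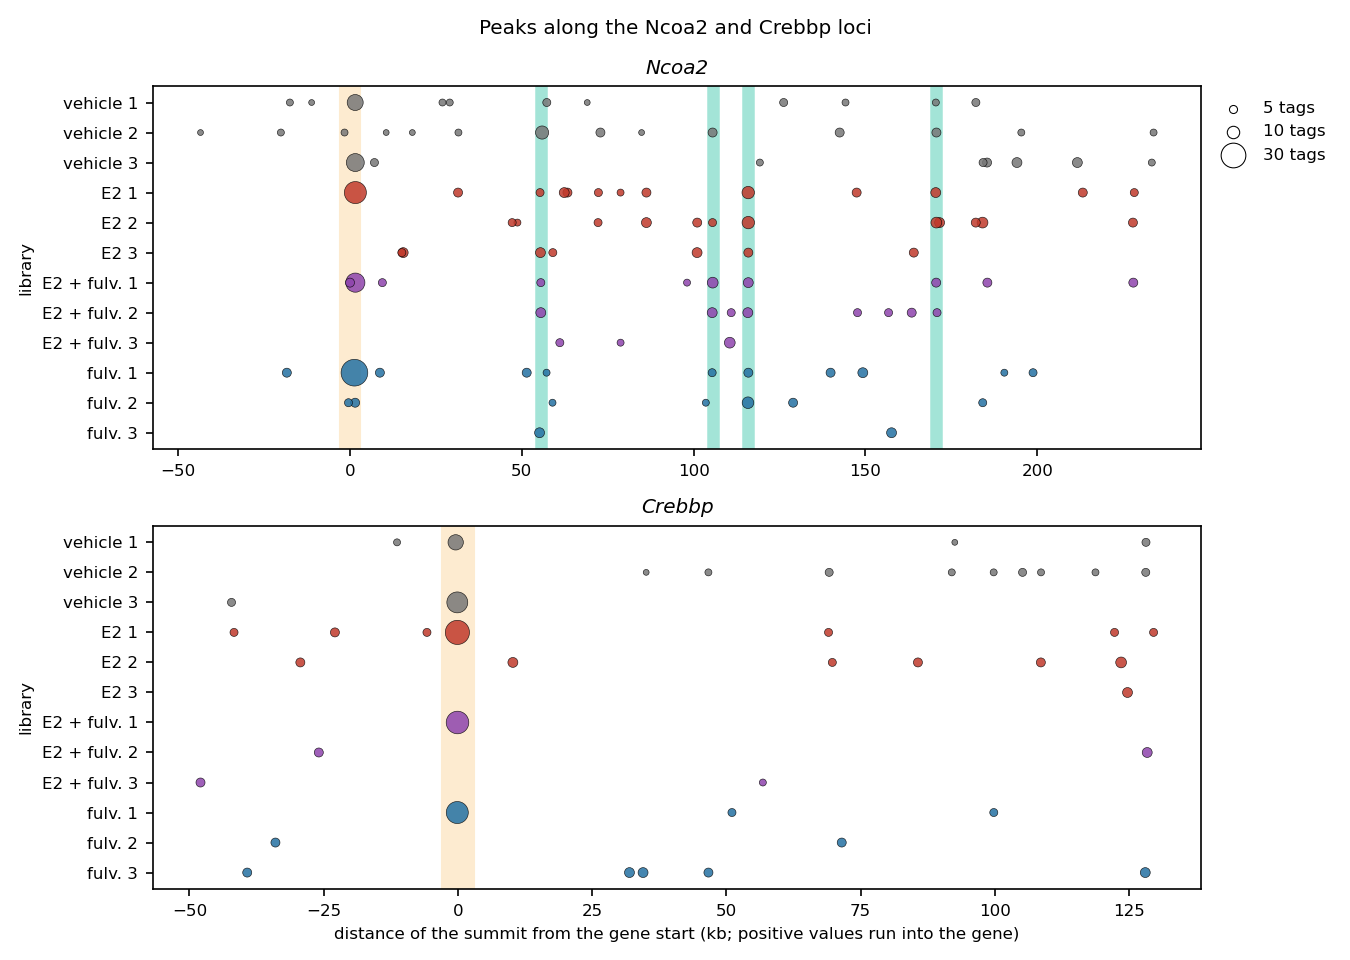
Peaks along the Ncoa2 locus (top) and the Crebbp locus (bottom), with the distance of each summit from the gene start in kb on the horizontal axis and 1 row per library, coloured by treatment, with circles growing with the tags at the summit. The pale band marks 3000 bp on either side of the start and the green bands the 4 Ncoa2 repeats, and the large circles at both starts fall in the 4 libraries numbered 1 and vehicle 3.

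The other regions called in at least 4 libraries were 4. In an intron of Ncoa3, 38740 bp inside the gene, a region held 8 tags in E2 1, 5 in E2 plus fulvestrant 1, 9 in fulvestrant 1 and 7 in vehicle 3, the libraries that also had the start peaks. Upstream of Ncor1, at 36705 bp, a region held 4 tags in vehicle 1, 8 in E2 1, 6 in E2 plus fulvestrant 3 and 7 in fulvestrant 1. Each of these regions was called in 1 library of every treatment. Near an internal start of Crebbp, 128135 bp inside the gene, an exonic region held 5 tags in vehicle 1 and in vehicle 2 and 7 in E2 plus fulvestrant 2 and in fulvestrant 3, and no peak there passed q of 0.05. Upstream of Ncoa3, at 5259 bp and 1452 bp from the start of Platr29, a region held 5 to 10 tags in the 4 libraries numbered 1, vehicle 3 and E2 plus fulvestrant 3.

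Exactly 1 region of the 109 called in either group was listed in every E2 library but not once with E2 plus fulvestrant, an exon of Ep300 about 63019 bp inside the gene. Genome-wide, 0.137% of regions had that pattern and 0.0416% the reverse, which no coregulator region showed. The Ep300 region held 5, 5 and 4 tags in the E2 libraries, near the fewest a list could hold, and none of the 3 peaks passed q of 0.05. It was absent also from all vehicle and fulvestrant libraries. Its window is shown with the CCAAT box and both half-sites (TGACC, the reverse complement of GGTCA) in capitals. Half-sites were in 25.2% and CCAAT boxes in 20.9% of the regions outside promoters.
Ep300 exon, chr15:81648270-81648470, plus strand: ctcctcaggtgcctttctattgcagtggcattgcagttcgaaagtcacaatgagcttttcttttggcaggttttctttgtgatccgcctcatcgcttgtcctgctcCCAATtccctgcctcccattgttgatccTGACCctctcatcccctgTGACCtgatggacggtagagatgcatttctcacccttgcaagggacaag

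Other coregulator genes gave the members a frame. Of 37 further genes listed for this purpose, 17 had more peaks with E2 than with E2 plus fulvestrant, 13 fewer and 7 the same, with a median difference of 0, beside 0.33 over all loci. The 7 include loci with no peak in either group, which were not tested. Groups did not overlap at 1 of the 37, beside 2.16% of all loci tested, so this is close to the background. That gene was Hdac2, a histone deacetylase of corepressor complexes, with 5, 2 and 2 peaks against 1, 1 and 0 (exact permutation p = 0.1, the smallest possible, adjusted p = 1). The median gene of the list had a promoter call in 8 of 12 libraries, as had the median member, beside 5 for all genes.

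Peaks per 10000 peaks of the library were also compared across the 12 libraries between each member and 43 other coregulators. The closest partners were Smarce1 for Ncor1 (Pearson r = 0.86), Ncor1 for Ncoa1 (0.72) and for Crebbp (0.66), Kmt2c for Ncoa3 (0.62), Gps2 for Ncoa2 (0.61), Ncoa3 for Nrip1 (0.58) and Sin3a for Ep300 (0.48). Each is the highest of 43 values on small counts from shared libraries and is given as a description only.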

How the data were processed

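ATAC-seq peak lists from 12 libraries were used, 1 list per library without pooling. According to its methods, the study aligned reads to mm10, discarded duplicates and ran MACS2. The submitters' processing notes name Trimmomatic 0.39, Bowtie2, Picard 2.21.4 and MACS2. For each peak the authors deposited a score, a fold enrichment (a ratio to local background), the −log10 of the p-value and of the q-value, and the summit offset. The deposited scores were not used. The smallest −log10 p-value was 2.01, so the lists reach beyond q of 0.05. Whole tags at each summit were solved from the deposited fold enrichment and −log10 p-value (tolerance 0.002 on the −log10 scale, all 333 peaks). The background is the commonest value in a list and shows relative depth only.

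Read counts in peaks were not analysed here, so loci were compared by number of peaks. Tests were exact two-sided permutation tests (10 splits, smallest p 0.1) over 21304 loci with at least 1 peak in the 6 libraries, with Benjamini-Hochberg adjustment. Comparisons with vehicle share its libraries and were not tested. Groups and numbers came from the sample labels. Same-numbered libraries deviated together only weakly (r of −0.04 to 0.21 over 18 pairs, above 0.1 in 5), so numbers were not treated as pairs. Regions are peaks of all lists merged where they overlap or touch. All 7 members were named, with other coregulators where groups did not overlap. The naming rule for regions asked for 9 of 12 libraries, which none reached, so regions called in at least 4 were described after their values were seen. Members and lists were chosen with earlier results of these data known. Alternatives were peaks with q of 0.05 or less, the 30000 strongest peaks, peaks per 10000, the gene body alone, a promoter window of 1000 bp, the replicate block, leaving out each library and, added after seeing the data, leaving out tandem repeats. Scripts were tested on simulated data (Python 3.11.15, numpy, pandas, scipy). All 656091 peaks on the 21 chromosomes lay within GRCm38. The sequence at the start of Ncoa2 is not reported here.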

Additional observations from a re-analysis of the deposited data

How the results depend on the processing

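Only lists were compared, and 3 libraries a group cannot reach p of 0.05, so a call could not be lost. Reversals among the 7 differences of E2 and E2 plus fulvestrant were of about 1 peak or less in most cases. Ncoa3 turned to 0.33 with the 30000 strongest peaks, 1 within numbers 2 and 3 and 1.33 without E2 3 or E2 plus fulvestrant 1 (−1.67 to 1.33 as libraries were left out). Ncor1 turned to −0.0048 per 10000 peaks, −1 within number 1, −0.67 without E2 2 and −0.5 without E2 plus fulvestrant 2. Nrip1 turned to −0.33 with q of 0.05 or less, Ncoa1 to −0.17 without E2 plus fulvestrant 2 (−0.17 to 2.5 as libraries were left out), and Ep300 to 0.67 in the gene body, 2 within number 1 and 0.17 without E2 plus fulvestrant 3. Ncoa2 and Crebbp reversed under no alternative run. With vehicle, 9 of 21 differences turned sign per 10000 peaks, 9 with the 30000 strongest and 6 with q of 0.05 or less. The count of member loci with E2 above in all libraries was 0 to 3 over the libraries left out, and 1 with the replicate block (Ncoa2, higher in 3 of 3 numbers, as were 7.81% of all loci). The pairing is only a shared number, and 10 of 12 libraries correlated best with a library of their own number. Over all loci the 363 above and 97 below became 15 and 1 with q of 0.05 or less, 240 and 310 with the 30000 strongest, 720 and 1135 per 10000 peaks and 1663 and 797 with the replicate block, and ranged from 504 to 2147 above and from 146 to 1447 below as each library was left out. Regions called in at least 2 libraries fell from 46 to 13 with q of 0.05 or less, and regions specific to E2 from 1 to 0, or 1 to 3 as libraries were left out. The cause was not tested. Without tandem repeats no difference turned sign, and the loci above and below were 353 and 100.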
